A study of Homo sapiens with 6 samples.

Results

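TIPARP, CYP1B1, AHRR and ARNT, which belong to the aryl hydrocarbon receptor (AHR) pathway, were followed in A375 cells, a human melanoma cell line. They were taken by symbol from a list of 8 AHR pathway and target genes that was drawn up with earlier results of these data known, and hold 7 of the 22442 deposited rows and 4 of the 12438 gene symbols. AHR itself, CYP1A1, CYP1A2 and ALDH3A1 have no row in the tables used here and were not analysed. Of the 12438 genes 0 have a gene body density of 0 in DMSO, against 163 with A771726 and 103 with leflunomide. Genes with no gene body signal in DMSO, including any switched on by a compound, thus have no row. Why these 4 genes have none was not tested. The cells had been treated for 48 h with 25 µM A771726, 25 µM leflunomide or the solvent DMSO, with 2 libraries in each group and 6 in all. The series names DHODH inhibition and HEXIM1 in melanoma as its subject, and leflunomide is also a known AHR ligand. Leflunomide is a prodrug whose isoxazole ring opens to give A771726 (teriflunomide), the metabolite that inhibits DHODH, an enzyme of pyrimidine synthesis. A375 is a single line, and separate cultures behind the 2 replicates are not described beyond the word duplicate, so p-values measure only the spread between these libraries, which may be technical.

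AHR is a ligand-activated transcription factor that waits in the cytosol with HSP90 and p23. Once a ligand binds, it enters the nucleus, pairs with ARNT and binds DNA at xenobiotic response elements with the core GCGTG. CYP1A1, CYP1A2 and CYP1B1 (enzymes that oxidise foreign compounds and oestrogens), AHRR (a repressor that competes for ARNT) and TIPARP (also PARP7, a mono-ADP-ribosyltransferase that marks AHR and limits its activity) are its usual read-outs.

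Global run-on sequencing (GRO-seq) maps engaged RNA polymerase: nuclei extend their nascent transcripts in the presence of a label, and the labelled RNA is sequenced. For each gene the authors deposited a mean promoter density, a mean gene body density and a mean traveling ratio (promoter over gene body) per group. Single library values were solved from these means where the 3 numbers allowed, and the library in which 1 promoter read is worth less is called library 1 of its group. The density equal to 1 promoter read was 0.0241 and 0.0313 in the A771726 libraries, 0.0347 and 0.0376 with leflunomide, and 0.0438 and 0.0520 in DMSO, so the same promoter density rests on fewer reads in DMSO. Neither library totals nor the reads behind a gene body value can be read from these means, so that depth is unknown. Of 9 melanocyte lineage markers 5 have rows, and the lineage factor gene SOX10 lay at percentile 98.8, 98.7 and 98.4 of gene body density with A771726, leflunomide and DMSO. The other 4 were lower: MITF stood at percentile 55.9, 55.9 and 36.3 in the same groups, PMEL at 59.0, 55.5 and 31.9, MLANA at 24.6, 18.9 and 42.1, and PAX3 at 78.1, 63.7 and 73.0. The median gene of 8798 past a filter on low density had a log2 gene body change of −0.52 with A771726 over DMSO, −0.06 with leflunomide over DMSO and −0.47 with A771726 over leflunomide, and changes are therefore also given relative to it. The promoter medians of the 8673 genes past the promoter filter were −0.01, 0.20 and −0.29 in these comparisons.

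The TIPARP row is not that of the transcript from the first TIPARP start. The deposited transcript, NM_001184718, begins in intron 1 of NM_015508 on chromosome 3 in the GENCODE annotation of GRCh38, 2.07 kb after the first TIPARP start in RefSeq, and NM_015508 has no row. GENCODE starts NM_015508 itself 248 bases further upstream than that RefSeq start. Both start regions are shown, since the deposited row belongs to the second. The authors' own windows are not stated and may differ from these. Letters are from RefSeq (GRCh38.p14), 250 bases before and 50 after each start, with the core GCGTG, here CACGC on the printed strand, in capitals. The first is chr3:156674340-156674639 and the second chr3:156676414-156676713, both on the plus strand.
TIPARP first RefSeq start: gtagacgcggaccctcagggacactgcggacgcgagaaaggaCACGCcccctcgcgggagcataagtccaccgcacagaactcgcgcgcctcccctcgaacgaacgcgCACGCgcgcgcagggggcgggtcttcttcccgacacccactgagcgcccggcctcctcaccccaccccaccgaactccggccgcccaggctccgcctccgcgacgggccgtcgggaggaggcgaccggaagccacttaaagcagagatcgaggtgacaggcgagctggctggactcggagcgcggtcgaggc
TIPARP NM_001184718: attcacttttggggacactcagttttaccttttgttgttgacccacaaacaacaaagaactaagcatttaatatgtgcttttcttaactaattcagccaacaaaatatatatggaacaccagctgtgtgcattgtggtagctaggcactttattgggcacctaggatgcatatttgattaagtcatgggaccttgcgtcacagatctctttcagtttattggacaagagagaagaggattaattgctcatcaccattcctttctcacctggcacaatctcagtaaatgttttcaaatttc
The upstream window holds 2 cores, both on the minus strand, beginning 208 and 142 bases before the RefSeq start and after the GENCODE start of NM_015508, in sequence of 71.0% G and C. The window of the deposited transcript holds none on either strand, and its G and C content is 38.0%. The core was present on either strand in 36.5% of 35116 RefSeq windows of this length, so its presence at a start is common. The ARNT start, chr1:150876550-150876849 on the minus strand, is shown because a RefSeq window lies within 169 bases of its deposited transcripts.
ARNT: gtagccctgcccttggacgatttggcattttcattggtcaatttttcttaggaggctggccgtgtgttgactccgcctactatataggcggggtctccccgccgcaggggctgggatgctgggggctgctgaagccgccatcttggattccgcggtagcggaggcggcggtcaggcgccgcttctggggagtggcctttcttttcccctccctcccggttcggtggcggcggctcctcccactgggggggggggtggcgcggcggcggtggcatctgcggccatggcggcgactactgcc
It holds no core on either strand, and 66.7% of its letters are G or C. The starts of the deposited AHRR transcripts, NM_020731 and NM_001242412, lie 17538 bases from the nearest RefSeq window of AHRR, so no AHRR sequence is shown.

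TIPARP was transcribed at a level above most genes in every group. Its mean gene body density was 0.0374 with A771726, 0.0685 with leflunomide and 0.0480 in DMSO, which placed it at percentile 81.2, 87.0 and 78.0 of all genes. The order of the means was therefore leflunomide, DMSO, A771726. The log2 change of the means was 0.49 with leflunomide over DMSO, or 0.55 relative to the median gene, and it was higher than that of 89.9% of genes past the filter. With A771726 over DMSO the log2 change was −0.34, but 0.18 relative to the median gene, the opposite sign. Neither change reached 2-fold.

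The A771726 libraries 1 and 2 had TIPARP gene body densities of 0.0462 and 0.0286, and the leflunomide libraries 0.0615 and 0.0755 in an order that could not be told. Both A771726 values lay below both leflunomide values, as they did in 54.3% of 5428 genes solved in these groups, against 2.27% with both above. In a limma fit of these 4 libraries the log2 change of A771726 over leflunomide was −0.87 (95% interval −1.79 to 0.05, adjusted p = 0.377), where 0 genes passed an adjusted p of 0.05 (0.00%) and 697 had an unadjusted p under 0.05. With libraries centred on their medians the TIPARP estimate was −0.37 (adjusted p = 0.956). The DMSO pair of TIPARP had 5 possible solutions, with the lower value between 0.0096 and 0.0352 and the higher between 0.0608 and 0.0864. In 1 of the 5 solutions both leflunomide values exceeded both DMSO values, and in 4 they overlapped. Over the 5 solutions the limma estimate of leflunomide over DMSO ran from 0.54 to 1.13 (adjusted p from 0.906 to 0.910), and that of A771726 over DMSO from −0.33 to 0.26 (adjusted p from 0.674 to 0.998).

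At the internal start of TIPARP polymerase was close to the limit of detection. The mean promoter density was 0.01205 with A771726, 0.05995 with leflunomide and 0.0019 in DMSO. With A771726 this was 1 read in library 1 (0.0241) and a promoter value of 0 in library 2. The leflunomide libraries had 0.0355 and 0.0844, neither a whole number of reads of either library. In DMSO the 2 libraries together had 0.0038, against 0.0438 for 1 read in library 1, so they hold less than 1 whole read. The authors' deposited table gives a TIPARP traveling ratio of 0.261 with A771726, 0.848 with leflunomide and 0.0312 in DMSO, and folds over DMSO of 8.35 for A771726 and 27.1 for leflunomide. These folds divide by a promoter value below 1 read and have no stable size. The deposited start also lies inside intron 1 of NM_015508. Polymerase from the upstream start can thus count in both windows of this row and cannot be told apart. Among the 5190 genes with a ratio past both filters, it was at least 2-fold higher over DMSO in 34.6% (A771726) and 28.0% (leflunomide). It was at least 2-fold lower in 17.1% and 15.3%. No deposited row has a DMSO ratio above 7.5, while ARNT had 8.82 with A771726. Such a limit on the DMSO ratio can raise changes over DMSO, which was not tested. Between the compounds the TIPARP ratio had a log2 change of −1.70 with A771726 over leflunomide, where 21.0% of genes had a ratio at least 2-fold lower and 26.9% one at least 2-fold higher. Taken from the mean densities with pseudocounts, the log2 change of the ratio was 0.95 with A771726 over DMSO, 1.51 with leflunomide over DMSO and −0.56 with A771726 over leflunomide, so 1.51 alone was past 2-fold.

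In the promoter density itself the TIPARP log2 change after a pseudocount was 2.01 with leflunomide over DMSO, a size of at least 2-fold that 29.5% of 8673 genes reached in this direction. Its DMSO promoter mean of 0.0019 lay under the promoter filter of 0.0073, so TIPARP passed only through the groups where it was higher. The same holds for its place among the genes with a ratio. With A771726 over DMSO the change was 0.61, and 21.1% of genes had a value at least 2-fold higher and 26.5% one at least 2-fold lower. With A771726 over leflunomide the change was −1.39, and 29.5% of genes had a value at least 2-fold lower and 13.6% one at least 2-fold higher. Both leflunomide promoter values exceeded both DMSO values in each of the 5 solutions, as in 15.9% of 5165 genes solved in these groups, and the limma estimate for TIPARP was 1.94 with a 95% interval from −1.33 to 5.20 (adjusted p = 0.993). The limma estimate of A771726 over leflunomide was −1.45 (−4.64 to 1.74, adjusted p = 0.997), in a fit that called 1 of 5390 genes (0.0186%).

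**Figure D1:**
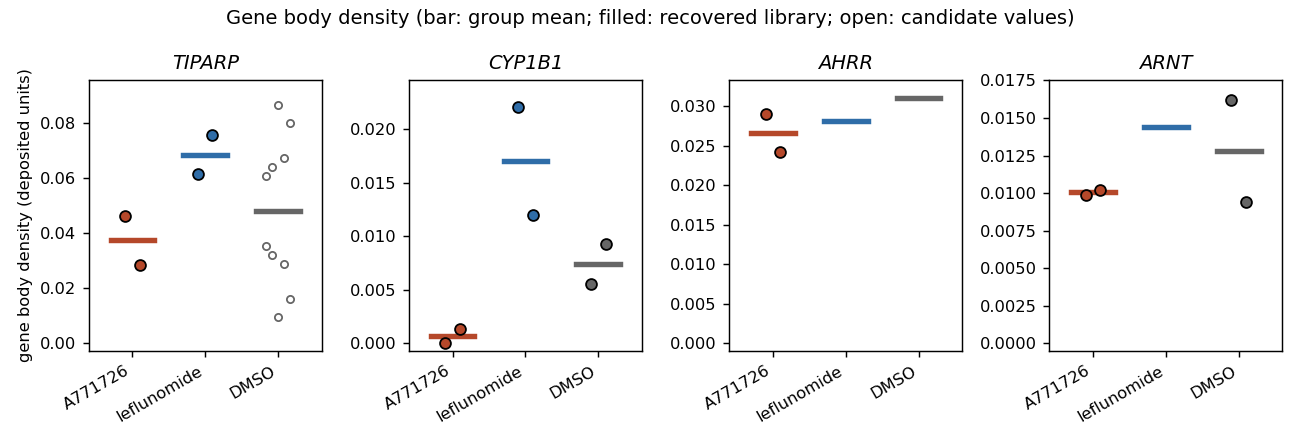
Gene body density (deposited units) of TIPARP, CYP1B1, AHRR and ARNT with A771726, leflunomide and DMSO. Horizontal lines are the authors' group means, filled points are single libraries recovered from them, and open points are the 5 candidate pairs of TIPARP in DMSO; each panel has its own scale. The 3 groups of CYP1B1 do not overlap, with A771726 lowest and leflunomide highest. Libraries of AHRR with leflunomide and in DMSO, and of ARNT with leflunomide, could not be recovered, so overlap cannot be judged there.

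CYP1B1 (NM_000104, chromosome 2), the extrahepatic member of the CYP1 enzymes and a classical AHR target, had the widest spread of the 4 genes between the compounds. Its mean gene body density was 0.00065 with A771726, 0.01705 with leflunomide and 0.0074 in DMSO. It stood at percentile 5.65 of all genes with A771726, 47.0 with leflunomide and 24.8 in DMSO. With A771726 the deposited ratio is missing, which a mean of library ratios gives only where 1 library has neither promoter nor gene body signal, so the gene body values there were 0 and 0.0013. The leflunomide libraries 1 and 2 had 0.0221 and 0.0120, and the DMSO libraries 0.0055 and 0.0093 in an order that could not be told. All values with A771726 thus lay below those in DMSO, and both leflunomide values above them.

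The log2 change of the CYP1B1 means was −1.79 with A771726 over DMSO, 1.01 with leflunomide over DMSO and −2.80 with A771726 over leflunomide, all 3 at least 2-fold. Relative to the median gene they were −1.27, 1.07 and −2.32. The mean density of CYP1B1 over the groups, however, lay just under the filter of 0.00845, so it is not counted among the genes tested. Of the 8798 genes past it 1.86% were at least 2-fold higher with leflunomide over DMSO, 18.7% at least 2-fold lower with A771726 over DMSO, and 12.6% at least 2-fold lower with A771726 over leflunomide. Those genes have a higher mean density than CYP1B1, and no share was taken over genes of like density. With a pseudocount 5 times larger the CYP1B1 change was −0.68 with A771726 over DMSO and 0.62 with leflunomide over DMSO, under 2-fold, and −1.30 with A771726 over leflunomide, still past it.

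A limma fit of all 6 libraries with no filter, on 4680 solved genes, was run for CYP1B1 after its values were seen. It gave −2.79 for A771726 over leflunomide (95% interval −3.91 to −1.66, unadjusted p = 0.000605, adjusted p = 0.348), −1.80 for A771726 over DMSO (−2.93 to −0.68, adjusted p = 0.161) and 0.99 for leflunomide over DMSO (−0.14 to 2.11, adjusted p = 0.999). limma called 0 genes (0.00%) in each comparison, with 660, 979 and 221 at an unadjusted p under 0.05. Of the 4680 genes 54.1% had both A771726 libraries below both leflunomide libraries (2.29% above), 54.1% had them below both DMSO libraries (2.07% above), and 13.9% had both leflunomide libraries above both DMSO libraries. The full order of CYP1B1, A771726 below DMSO and DMSO below leflunomide with no overlap, was found in 225 genes (4.81%).

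The promoter means of CYP1B1 had another order than its gene body means. Its mean promoter density was listed at 0 with A771726, 0.01735 with leflunomide and 0.0614 in DMSO. The leflunomide value was 1 read in library 1, and the DMSO value came from 1 library (0.1228) while the other had 0. Both groups therefore had a library at 0, and the values overlap. The DMSO value of 0.1228 is 2.8 or 2.36 times that of 1 read, depending on the library, and so not a whole number of reads. The log2 promoter change with leflunomide over DMSO was −1.18, at least 2-fold lower, as in 16.3% of genes, with a limma estimate of −0.71 (−3.47 to 2.04, adjusted p = 0.995). The traveling ratio of CYP1B1 was 0.785 with leflunomide and 6.60 in DMSO, a fold of 0.119 in the authors' deposited table, and with leflunomide as in DMSO it rests on 1 library.

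**Figure D2:**
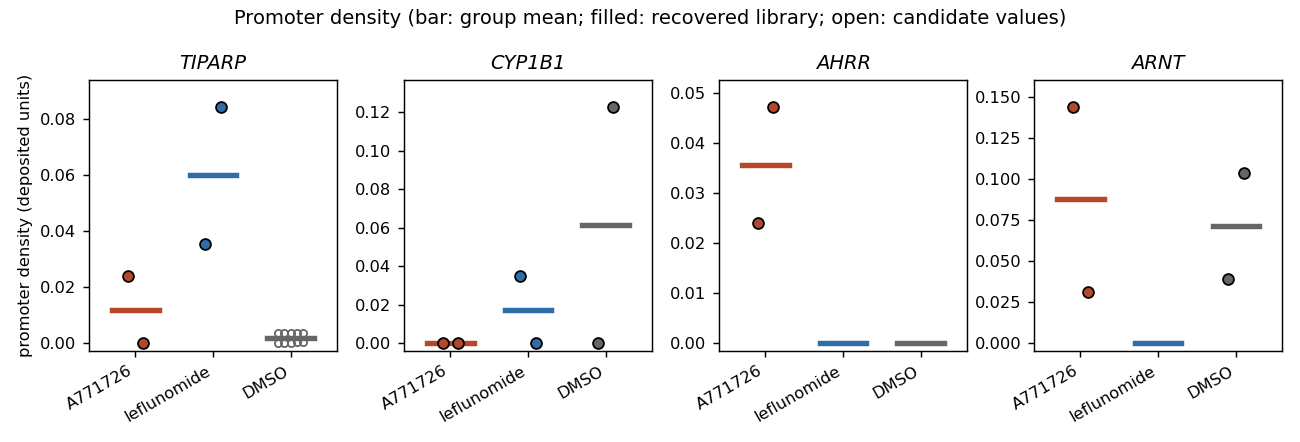
Promoter density (deposited units) of TIPARP, CYP1B1, AHRR and ARNT with A771726, leflunomide and DMSO. Horizontal lines are the authors' group means, filled points recovered libraries and open points the candidate pairs of TIPARP in DMSO. Most values are those of a few reads, and 4 of the 12 group means shown are 0.

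AHRR, the repressor that AHR induces and that in turn displaces AHR from ARNT, differed little between groups in gene body density. Its gene body density was 0.0266 with A771726, 0.02815 with leflunomide and 0.0311 in DMSO, in 2 rows with identical values for the transcripts NM_020731 and NM_001242412 on chromosome 5. AHRR thus stood at percentile 72.5, 63.5 and 65.5 of all genes. The log2 changes were −0.21 with A771726 over DMSO, −0.13 with leflunomide over DMSO and −0.08 with A771726 over leflunomide. Relative to the median gene AHRR had a change of 0.31 with A771726 over DMSO and 0.40 over leflunomide, both with the opposite sign. The A771726 libraries 1 and 2 had 0.0290 and 0.0242, and the pairs of the other groups could not be solved because the promoter is listed at 0 in both. No limma value could therefore be given for AHRR. Its promoter had 0.0241 (1 read) and 0.0473 (1.51 times the value of 1, not a whole number) in the A771726 libraries, a mean of 0.0357. No promoter signal is listed with leflunomide or in DMSO. With such values no fold is given. Promoters listed at 0 made up 39.7% of all genes with A771726, 34.9% with leflunomide and 42.9% in DMSO.

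ARNT, the partner that AHR needs to bind DNA and that HIF factors share, also stayed within 2-fold in gene body density. Its 3 rows hold identical values, with gene body densities of 0.01005 with A771726, 0.0144 with leflunomide and 0.0128 in DMSO, at percentile 42.8, 41.7 and 37.4. The log2 changes were −0.29 with A771726 over DMSO, 0.15 with leflunomide over DMSO and −0.44 with A771726 over leflunomide. Relative to the median gene they were 0.23, 0.20 and 0.03, so the sign of both changes with A771726 turns. The A771726 libraries 1 and 2 had 0.0099 and 0.0102 and the DMSO libraries 0.0162 and 0.0094, so the groups overlap. In a limma fit of these 4 libraries ARNT had a log2 change of −0.26 (95% interval −1.32 to 0.81, adjusted p = 0.738) among 4948 genes, of which 0 were called (0.00%) and 788 had an unadjusted p under 0.05. Without DMSO library 1 the estimate was 0.08, the opposite sign.

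The ARNT promoter had 0.1443 (6 reads, 5.99 times the value of 1) and 0.0313 (1 read) in the A771726 libraries 1 and 2. The DMSO libraries 1 and 2 had 0.0395 (0.902 times the value of 1, not a whole read) and 0.1040 (2 reads). The ARNT promoter is listed at 0 with leflunomide, so no fold against that group is given. The log2 promoter change with A771726 over DMSO was 0.24, with a limma estimate of 0.09 (−3.17 to 3.36, adjusted p = 0.995). The mean traveling ratio of ARNT was 8.82 with A771726 and 6.75 in DMSO, a fold of 1.31 in the authors' deposited table. The library ratios behind it were 14.6 and 3.07 with A771726 and 2.44 and 11.1 in DMSO, which overlap widely (limma estimate 0.37, −1.76 to 2.49, adjusted p = 0.955, 0 of 1975 genes called and 137 at an unadjusted p under 0.05). The DMSO ratios of ARNT and CYP1B1 lie close to 7.5, the highest ratio that any deposited row has in DMSO, so genes of this kind with a higher DMSO ratio are not in the tables.

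Together, 0 of the 3 genes past the gene body filter (TIPARP, AHRR and ARNT) were at least 2-fold higher or lower in any of the 3 comparisons. The share of all genes that was at least 2-fold higher was 0.864% with A771726 over DMSO, 1.86% with leflunomide over DMSO and 1.03% with A771726 over leflunomide, and the share at least 2-fold lower was 18.7%, 4.50% and 12.6%. The median log2 change of the 3 genes was −0.29, 0.15 and −0.44 in these comparisons, against −0.52, −0.06 and −0.47 for all genes.

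**Figure D3:**
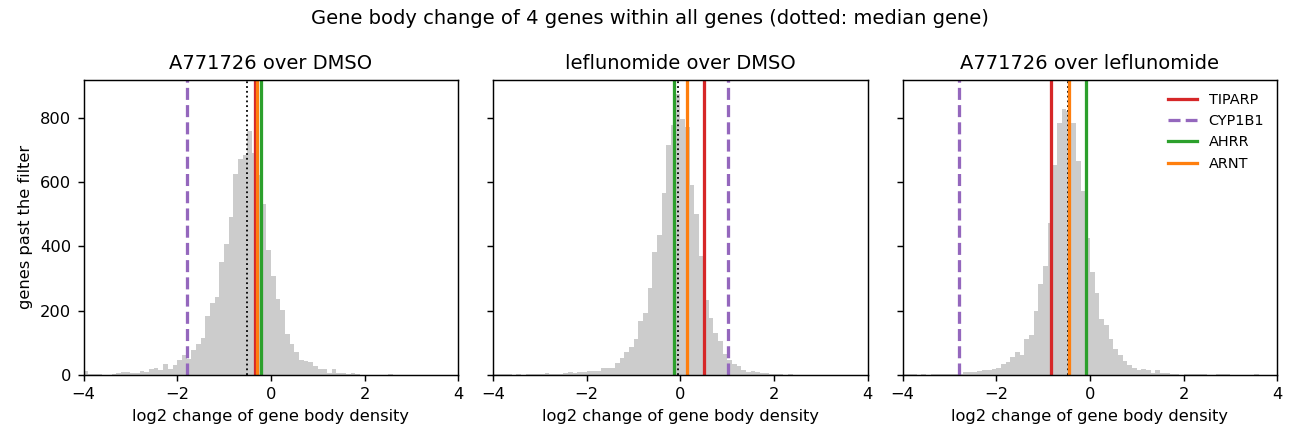
Log2 change of mean gene body density of 4 AHR pathway genes (vertical lines) over the histogram of all 8798 genes past the filter (values beyond 4 set to 4), for A771726 over DMSO, leflunomide over DMSO and A771726 over leflunomide. TIPARP, AHRR and ARNT lie within 1 of 0 on the log2 scale in each panel, while CYP1B1 (dashed, under the filter) lies at −1.79, 1.01 and −2.80; the dotted line is the median gene.

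Of 71 other genes around the pathway, listed by role with earlier results of these data known, 45 have rows and 29 passed the gene body filter. The limma fit of all 6 libraries past the filter held 17 of them and none of the 4 AHR pathway genes. It called 0 of the 17 in either direction in each comparison, with smallest adjusted p-values of 0.169 for A771726 over DMSO, 0.999 for leflunomide over DMSO and 0.343 for A771726 over leflunomide. Over all 4450 genes it also called 0 (0.00%), with 934, 203 and 641 at an unadjusted p under 0.05. The remaining values are thus descriptions of size.

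In the complex that holds AHR in the cytosol, both HSP90 genes had lower densities in every treated library than in either DMSO library, with no adjusted p under 0.05. HSP90AB1, which encodes the constitutive HSP90 chaperone, had gene body densities of 0.1647 and 0.2777 with A771726, 0.2180 and 0.2812 with leflunomide, and 0.4740 and 0.4512 in DMSO. All 4 treated libraries lay below both DMSO libraries, as in 17.7% of 4680 genes. The limma log2 change of HSP90AB1 was −1.10 with A771726 over DMSO (95% interval −1.86 to −0.35, adjusted p = 0.174) and −0.90 with leflunomide over DMSO (−1.65 to −0.14, adjusted p = 0.999). HSP90AA1, the stress-inducible form, had 0.1397 and 0.1209 with A771726, 0.1435 and 0.1805 with leflunomide, and 0.2110 and 0.2355 in DMSO, and again the groups did not overlap with DMSO. PTGES3, which encodes the cochaperone p23, had mean densities of 0.0430 with A771726, 0.06825 with leflunomide and 0.07265 in DMSO. Both libraries lower than both of DMSO were found in 54.1% of genes with A771726 and 20.7% with leflunomide. Of the 5 measured genes of this group, 1 (HSP90AB1) was at least 2-fold lower with A771726 over DMSO and none with leflunomide. Over all genes these shares were 18.7% and 4.50%. The group median was −0.73 and −0.09, against −0.52 and −0.06 for all genes. Relative to the median gene the log2 changes of HSP90AB1 over DMSO were −0.54 with A771726 and −0.83 with leflunomide, both under 2-fold.

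Among other reported AHR targets 8 of 12 measured genes passed the filter. With A771726 over DMSO 2 of the 8 (NQO1 and STC2) were at least 2-fold lower, against 18.7% of all genes. Relative to the median gene their log2 changes were −0.75 and −0.69, under 2-fold. With leflunomide over DMSO none of the 8 was at least 2-fold changed, and their median log2 change was 0.19, against −0.06 for all genes. NQO1, a quinone reductase that AHR and NRF2 both induce, had mean gene body densities of 0.05005 with A771726, 0.08725 with leflunomide and 0.12415 in DMSO. Its libraries had 0.0361 and 0.0640 with A771726, 0.0892 and 0.0853 with leflunomide, and 0.1387 and 0.1096 in DMSO, so no group overlapped another, in an order that 9.02% of 4680 genes had. The limma log2 change of NQO1 was −1.32 with A771726 over DMSO (−2.19 to −0.45, adjusted p = 0.169) and −0.49 with leflunomide over DMSO (−1.36 to 0.38, adjusted p = 0.999). STC2, which encodes a secreted glycoprotein, had means of 0.0090 with A771726, 0.02775 with leflunomide and 0.0236 in DMSO. It was at least 2-fold lower with A771726 over either. Relative to the median gene its log2 change over leflunomide was −0.95, also under 2-fold. SLC7A5, an amino acid transporter gene, had 0.05815 with A771726, 0.0858 with leflunomide and 0.06875 in DMSO. UGT1A1, a glucuronidation enzyme gene that lay under the filter, had 0.0032 with A771726, 0.0094 with leflunomide and 0.00185 in DMSO, and shares its downstream exons with the other UGT1A genes, whose reads cannot be told apart from it.

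Among coregulators and degradation factors of the receptor 0 of 8 genes past the filter reached 2-fold in gene body density in any comparison. Of all genes 18.7% with A771726 over DMSO, 4.50% with leflunomide over DMSO and 12.6% with A771726 over leflunomide were at least 2-fold lower. In the same comparisons 0.864%, 1.86% and 1.03% were at least 2-fold higher. The medians were −0.35 for A771726 over DMSO and −0.05 for leflunomide over DMSO, against −0.52 and −0.06 for all genes. NRIP1, a nuclear receptor cofactor, had libraries of 0.0230 and 0.0300 with A771726, 0.0466 and 0.0497 with leflunomide, and 0.0294 and 0.0273 in DMSO, with leflunomide above both other groups, as in 11.5% of genes (limma log2 change over DMSO 0.72, −0.02 to 1.46, adjusted p = 0.999). Of the bHLH-PAS family that AHR and ARNT belong to, NPAS1 had 0.0187 with A771726, 0.0192 with leflunomide and 0.00695 in DMSO. Its log2 changes over DMSO were 1.20 and 1.23. It was the 1 gene of 4 past the filter that reached 2-fold, where 0.864% and 1.86% of all genes were at least 2-fold higher. Its DMSO density lay under the filter of 0.00845, so NPAS1 passed only through the groups where it was high. Its libraries could not be solved. HIF1A, which also pairs with ARNT, had 0.04215 with A771726, 0.0609 with leflunomide and 0.0441 in DMSO. Of the PARP family that TIPARP belongs to, 4 genes passed the filter, and PARP6 was at least 2-fold lower with A771726 (libraries of 0.0097 and 0.0069) than with leflunomide (0.0203 and 0.0220) or DMSO (0.0184 and 0.0209), with limma adjusted p-values of 0.343 and 0.179, where 12.6% and 18.7% of all genes were at least 2-fold lower. Relative to the median gene the log2 changes of PARP6 with A771726 were −0.69 over leflunomide and −0.54 over DMSO, under 2-fold. Genes that make kynurenine, an endogenous AHR ligand, were represented by IDO2 and KMO, both under the filter and at or below 0.00155 in every group.

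**Figure D4:**
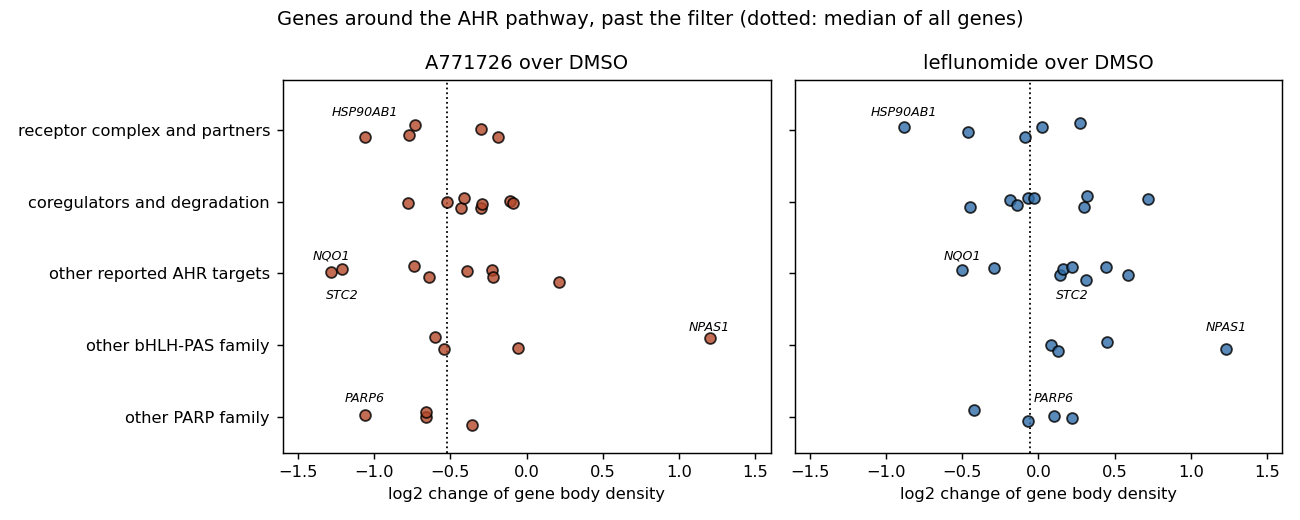
Log2 change of mean gene body density over DMSO of 29 genes around the AHR pathway that passed the filter, grouped by role, with A771726 (left) and leflunomide (right). Each point is 1 gene, vertical scatter within a row has no meaning, and the dotted line is the median of all genes (−0.52 and −0.06); the genes named in the plot are those at least 2-fold changed in some comparison.

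The genes whose pattern was most like that of TIPARP were sought over 4 values, the log2 changes of promoter and gene body with each compound over DMSO, by Euclidean distance among 7514 genes past both filters. All 4 values share the DMSO libraries. The 5 closest were SEC24D, a COPII vesicle coat gene (distance 0.205), NNT, the mitochondrial transhydrogenase gene (0.282), the receptor tyrosine kinase gene MET (0.295), the spliceosome gene BCAS2 (0.295) and MPV17L (0.318), against a median distance of 2.47. Gene body densities of MET were 0.0129 with A771726, 0.0227 with leflunomide and 0.01785 in DMSO, and its promoter had 0.02435, 0.07085 and 0.00695 in the same groups. SEC24D had gene body densities of 0.00735, 0.0165 and 0.0111 and promoter densities of 0.01205, 0.05205 and 0 in the same order. As at TIPARP, the DMSO promoter values of SEC24D, MET and MPV17L lie below that of 1 read per library.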

How the data were processed

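Deposited tables gave, per the file headers, promoter and gene body signal (read densities) and traveling ratios, each averaged by the authors over the 2 libraries of a group, and a fold of the ratio over DMSO. The submitters' processing notes name hg18, Bowtie 0.12.9 and bedtools. Window limits, the scaling of libraries and the annotation are not stated in these sources. The header A771762 was read as the labels' A771726.

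One row per gene (highest mean gene body density) was kept. Genes under the 30th percentile of the row mean (0.00845 for gene bodies, 0.0073 for promoters) were left out. Changes are log2 ratios of group means after a pseudocount (0.0021 and 0.01735), which understates low genes; ratios had none. For means there is no test, and 2-fold changes were counted. Library values were solved from the mean densities, given to 4 decimals per library, and the mean ratio. A single solution was found for 94.5%, 94.1% and 90.9% of rows with a finite ratio above 0 (A771726, leflunomide, DMSO), and 81.1%, 77.9% and 78.6% of promoter values up to 20 reads were whole reads within rounding (4.3%, 2.1% and 1.3% after a shift by part of a read). Each of the 4 genes, however, had a promoter value in some group that was not a whole number of reads. The library values were tested with limma 3.58.1 (trend, robust, Benjamini-Hochberg over all genes fitted) on log2(density + pseudocount), in R 4.3.3. The solver and the limma step were tested on simulated data. Those data held only whole promoter reads and the same spread for every gene, unlike the recovered values. The planned fit of 3 groups past the filter held none of the 4 genes, so fits of the 2 groups compared (TIPARP, ARNT) and of 3 groups with no filter (CYP1B1) were added after seeing the data. Exact tests of 2 against 2 cannot go below p = 0.333.

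All rows of the 8 genes are described. Other genes named are those of the lists at least 2-fold changed or of high density, and the 5 closest to TIPARP. NRIP1, SLC7A5, HIF1A, UGT1A1, IDO2 and KMO were named after their values were seen. Members and lists were chosen with earlier results of these data known.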

Additional observations from a re-analysis of the deposited data

How the results depend on the processing

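No paired analysis was possible because the columns carry no replicate letters. A fit with a replicate block was therefore not run, nor were the alternatives of the 3-group fit past the filter, which holds none of the 4 genes. Relative to the median gene the gene body change with A771726 over DMSO was 0.18 for TIPARP, 0.31 for AHRR and 0.23 for ARNT, and over leflunomide 0.40 for AHRR and 0.033 for ARNT, and the ARNT ratio over DMSO had −0.030, all of the opposite sign. With no filter CYP1B1 counts, so 1 gene body was at least 2-fold lower with A771726 over DMSO, 1 higher with leflunomide over DMSO and 1 lower with A771726 over leflunomide, and 1 ratio was lower with leflunomide over DMSO. With a pseudocount 5 times larger 0 promoters were at least 2-fold higher or lower with leflunomide over DMSO and 0 lower with A771726 over leflunomide. With the ratio of mean densities 0 ratios were higher with A771726 over DMSO and 0 lower with A771726 over leflunomide. With libraries centred on their medians limma gave ARNT 0.28 for the gene body and −0.064 for the ratio with A771726 over DMSO.

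Leaving out 1 library at a time (the lone sample is assumed to vary like the others, and libraries of a gene that could not be told apart kept the order in which they were solved) called none of these genes, while calls over all genes, 0 in the full gene body fits, numbered up to 48 of 4680, 217 of 5428 and 681 of 4948 in the fits used for CYP1B1, TIPARP and ARNT, each without A771726 library 1. The gene body estimate ran from −1.19 to −0.54 for TIPARP (A771726 over leflunomide), −0.59 to 0.079 for ARNT (A771726 over DMSO), −2.15 to −1.45 for CYP1B1 (A771726 over DMSO), 0.60 to 1.38 for CYP1B1 (leflunomide over DMSO) and −3.18 to −2.40 for CYP1B1 (A771726 over leflunomide). The promoter estimate ran from −2.08 to −0.82 for TIPARP (A771726 over leflunomide), −0.77 to 0.96 for ARNT (A771726 over DMSO), −3.01 to 0.00 for CYP1B1 (A771726 over DMSO), −2.22 to 0.79 for CYP1B1 (leflunomide over DMSO) and −1.58 to 0.00 for CYP1B1 (A771726 over leflunomide). The traveling ratio estimate ran from −0.76 to 1.49 for ARNT (A771726 over DMSO). The sign turned for ARNT in all 3 measures and for the CYP1B1 promoter with leflunomide over DMSO; the cause was not tested. Promoter values of a few reads limit what these data can show.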
